A study of Mus musculus with 23 samples.

Results

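The transcription factor NRF2 and its inhibitor KEAP1 set the expression of a group of genes for redox enzymes and for cystine uptake. The 10 genes described here are Slc7a11, Hmox1, Nqo1, Gclm, Gclc, Txnrd1, Srxn1, Cbr3, Nfe2l2 (the gene of NRF2) and Keap1. They are textbook members of the pathway, picked by name with earlier results of these data known, and all 10 were among the 18193 genes that could be tested. Each gene is represented by its probe set with the highest mean over all 23 arrays. Total RNA came from 8 subclones of the Lewis lung carcinoma (LLC) line, a transplantable mouse lung tumour cell line. There were 3 arrays for each of subclones 2, 3, 18, 19, 23, 24 and 28, and 2 for subclone 6. Every subclone is 1 clone taken from parental LLC cells by limiting dilution, was kept in DMEM with 10% FBS and Pen/Strep, and spent 24 h in serum-free FreeStyle medium before RNA was taken. Parental cells and cells given an NRF2 activator were not analysed here, so the comparisons are between subclones.

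In cells at rest, KEAP1 holds NRF2 in the cytoplasm and hands it to the CUL3 ubiquitin ligase for degradation. Oxidants and electrophiles modify cysteines of KEAP1, NRF2 then accumulates, pairs with small MAF proteins in the nucleus and binds antioxidant response elements. Its targets import cystine, make glutathione, recycle thioredoxin and peroxiredoxins, reduce quinones and carbonyls and break down haem. Many tumours carry high NRF2 output, and Slc7a11 is also a target of ATF4, the factor of the amino acid response. NRF2 itself is controlled mostly at the protein level, which arrays do not measure.

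Levels are means of log2(intensity + 16) ± SD, and a fold is on that scale, which understates changes of low intensities. A difference of a subclone is taken from the mean of the other 7 subclones, with its standard error (SE) from limma. A gene was called at a Benjamini-Hochberg adjusted p under 0.05 over all genes, with no minimum size. Arrays of 1 subclone are biological replicates per the labels, which name no separate cultures or days, so p-values measure the spread between these arrays. In bulk RNA, fewer cells expressing a gene and less RNA per cell cannot be told apart. Array medians lay between 40.83 and 45.74 intensity units. The number of arrays limits the precision, subclone 6 most of all. Of the fixed cell type markers, all 6 mesenchymal genes were above 5.3, the cutoff for low values, in every subclone, as were the epithelial genes Epcam, Krt8 and Krt18. Cdh1, Ptprc and Pecam1, markers of epithelium, leukocytes and endothelium, stayed below that cutoff in every subclone, while the myeloid genes Lyz2 and Csf1r lay above it in all 8. Over the whole lists, 2 of 7 epithelial, 4 of 6 measured leukocyte and 2 of 4 endothelial genes stayed below it in all 8. The endothelial genes Tek and Cdh5 passed it in some subclones. Of 5 lung epithelium genes, Sftpb was above it in all 8 (6.48 to 6.68) and 2 were below it in all 8. Some markers varied between the subclones at the extremes of Slc7a11. Krt8 was at 5.70 in subclone 18 and at 10.32 or more in the others, and the fibroblast gene Pdgfrb at 8.19 in subclone 18 and at most 5.46 in the others. The fibroblast gene Pdgfra (10.06) and the adipocyte gene Fabp4 (9.28) were highest in subclone 28, at 8.07 and 6.19 in subclone 18. Dcn, also of fibroblasts, was highest in subclone 2 (12.20) and lowest in subclone 19 (8.59). Of the fibroblast list, 2 of 5 genes were above the cutoff in all 8 subclones, and of the adipocyte list 1 of the 3 measured. Their part in the results was not tested.

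All 10 genes differed between the subclones in the moderated F-test of limma, against a background of 61.8% of all genes. Among the 6716 genes at or above the lowest mean level of the 10, that share was 97.3%, so passing the test does not set the 10 genes apart. The ranges are given beside the same backgrounds as a description. The genes were picked with earlier results of these data known, which can by itself favour wide ranges. The median range of subclone means was 1.16 log2 units over the 10 genes, 0.49 over all genes and 0.60 over the 6716. Slc7a11, Cbr3, Hmox1, Nqo1, Gclm and Srxn1 ranged over at least 1 log2 unit, as did 12.8% of all genes and 15.5% of the 6716. Gclc, Keap1, Txnrd1 and Nfe2l2 ranged over 0.54 (Nfe2l2) to 0.74 (Gclc) units. Of 280 combinations of a gene and a pair of subclones, 208 (74.3%) were called, against 35.8% over all genes and 61% over the 6716.

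**Figure D1:**
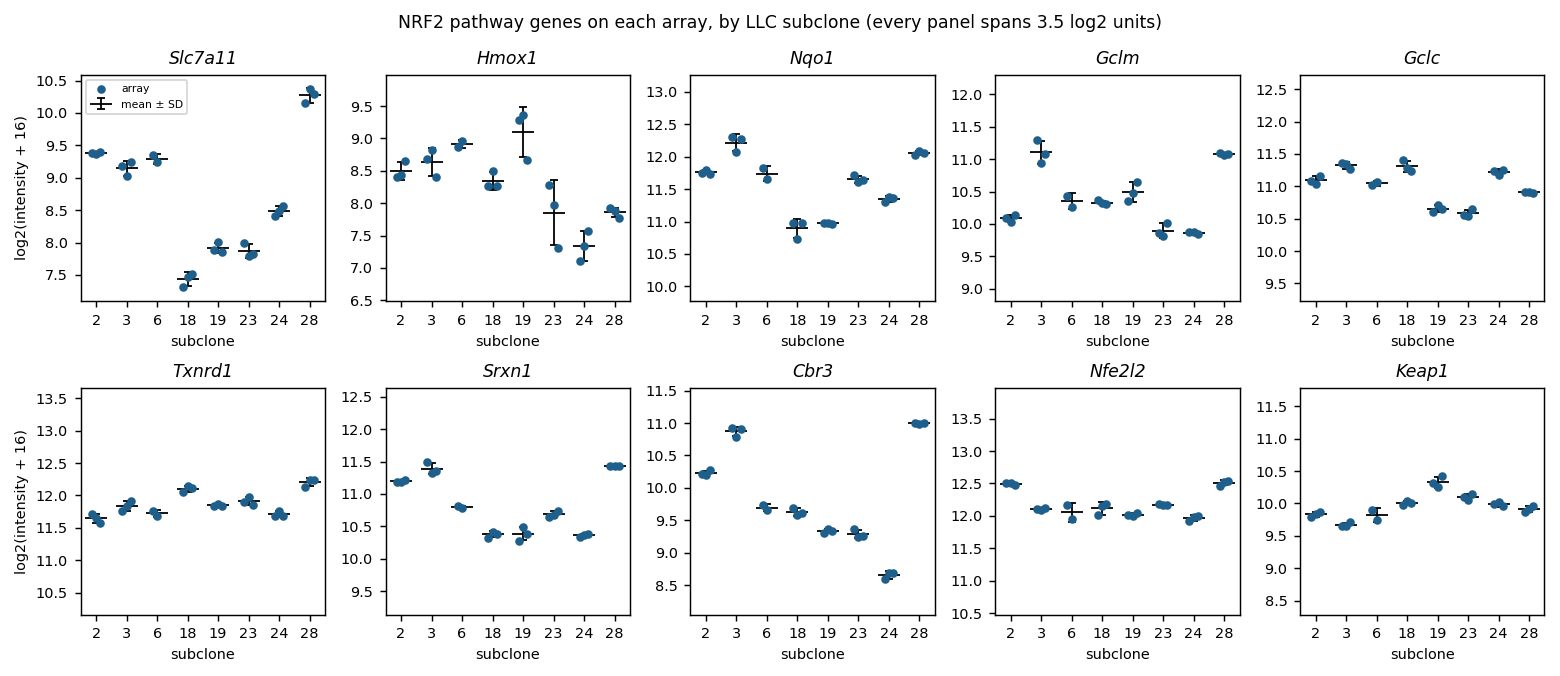
Level of each of the 10 genes on each of the 23 arrays, as log2(intensity + 16) on the vertical axis, by subclone on the horizontal axis. Points are arrays, dashes are means with SD, and every panel spans the same number of log2 units. Slc7a11 and Cbr3 spread most, Nfe2l2 and Txnrd1 least, and the arrays of Hmox1 scatter most within subclones 19 and 23.

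Slc7a11 encodes xCT, the subunit that exchanges extracellular cystine for glutamate and so feeds glutathione synthesis. Its intensities were 1119.5, 1309.9 and 1241 in subclone 28, 652, 647 and 660 in subclone 2, 635 and 587 in subclone 6, and 563, 503 and 589.6 in subclone 3. They were 324, 343 and 362 in subclone 24, 219.8, 241 and 215 in subclone 19, 239.8, 205 and 211 in subclone 23, and 143, 161 and 167 in subclone 18. Subclone 28 stood alone at the top, subclone 18 alone at the bottom, and no array of subclones 2, 3, 6 and 28 overlapped with any array of the other 4. The share of all genes that part the subclones in this way was not counted. This split is not particular to Slc7a11. The arrays of Srxn1 parted in the same way, at 1752 or more against 1695 or less. The subclone means of Nqo1 and Cbr3, and of Gch1, Maff, Blvrb and Ptgs2 described below, split likewise. Those of Keap1 split in reverse. The mean was 10.27 ± 0.11 in subclone 28 and 7.43 ± 0.11 in subclone 18 (SD, n = 3 each), a 7.16-fold difference (2.84 ± 0.076 SE on the log2 scale, limma adjusted p = 1.04e-15). Its range ranked 201 among all 18193 genes, which is wider than 98.9% of them. Between neighbours in the order, subclones 2 and 6 (adjusted p = 0.493 by limma), 6 and 3 (0.28), and 19 and 23 (0.738) did not differ beyond their spread.

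The bases in front of the Slc7a11 start are shown because the gene has the widest range of the 10 and answers to both NRF2 and ATF4. The stretch is the 250 bases before the RefSeq start, chr3:50443614-50443863 on the minus strand of GRCm38.p6, 5′ to 3′ along the gene.
Slc7a11: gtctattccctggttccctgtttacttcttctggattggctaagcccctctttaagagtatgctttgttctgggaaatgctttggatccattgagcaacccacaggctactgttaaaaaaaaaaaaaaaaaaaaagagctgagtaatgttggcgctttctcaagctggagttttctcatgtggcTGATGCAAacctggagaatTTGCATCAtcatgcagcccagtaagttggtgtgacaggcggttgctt
Capitals mark TGATGNAA, the composite element of C/EBP and ATF factors of the amino acid response, searched on both strands. The window held 2 matches, on opposite strands, ending 59 and 40 bases before the start. One or more matches stood in 3.45% of all 32851 promoter windows of that length. The core of the antioxidant response element, TGACNNNGC, had no match in this window and stood in 10.2% of all windows. A match is a description of letters, and a missing match says only that these letters are not in the window.

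Gclc and Gclm encode the catalytic and the modifier subunit of glutamate-cysteine ligase, which makes the first bond of glutathione. Gclm had intensities of 2505, 1959 and 2146 in subclone 3 and of 2175, 2126 and 2157 in subclone 28, and these arrays all lay above those of the other 6 subclones, which ran from 884 to 1587. At the low end were subclones 23 (909, 884 and 1024) and 24 (919, 925 and 906). Subclone 3 exceeded subclone 24 by 2.37-fold (1.24 ± 0.082 SE, limma adjusted p = 1.09e-09), whereas subclones 3 and 28 did not differ (adjusted p = 0.858 by limma). Gclc followed another order. Its intensities were 2620, 2584 and 2441 in subclone 3, 2694, 2482 and 2399 in subclone 18, and 2395, 2289.8 and 2425 in subclone 24. They were lowest in subclones 19 (1537, 1659 and 1582) and 23 (1488, 1480.1 and 1590.2), which overlapped each other and lay below all other arrays. Subclone 3 exceeded subclone 23 by 1.67-fold (0.74 ± 0.05 SE, limma adjusted p = 7.91e-10).

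The subunits parted in several subclones. In subclone 24, Gclc was higher than in the other 7 (0.23 ± 0.038 SE, limma adjusted p = 8.28e-05) and Gclm lower (-0.61 ± 0.062, adjusted p = 3.07e-07). In subclone 28, Gclm was higher by 0.78 ± 0.062 (limma adjusted p = 9.76e-09), and Gclc was at -0.12 ± 0.038 (adjusted p = 0.0148). Leaving out any of the 3 arrays of subclone 28 ended that Gclc call (adjusted p of 0.0504 to 0.062). In subclone 18, Gclc was higher by 0.33 ± 0.038 (limma adjusted p = 5.65e-07) while Gclm was at -0.08 ± 0.062 (adjusted p = 0.343). Subclone 3 was high in both and subclone 23 low in both. The difference between the genes within a subclone was not itself tested.

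The Gclm window, chr3:122245307-122245556 on the plus strand of GRCm38.p6, is shown because it held the core of the antioxidant response element, in capitals, on its minus strand.
Gclm: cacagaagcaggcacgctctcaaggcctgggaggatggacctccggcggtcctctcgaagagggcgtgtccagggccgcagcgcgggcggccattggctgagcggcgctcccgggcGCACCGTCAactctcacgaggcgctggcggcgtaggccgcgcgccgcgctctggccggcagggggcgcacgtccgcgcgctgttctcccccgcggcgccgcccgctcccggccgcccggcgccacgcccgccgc
Promoter windows were found for 8 of the 10 genes, with 3 starts for Txnrd1, and Hmox1 and Gclc had no entry. Besides Gclm, the letters TGACNNNGC had 1 match in the window of Nfe2l2 and 1 in a window of Txnrd1. They had none in those of Slc7a11, Nqo1, Srxn1, Cbr3 and Keap1. Other forms of the antioxidant response element were not searched for, so no match does not mean that a window lacks such an element.

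Cbr3, Nqo1 and Srxn1 followed an order close to that of Gclm at the top. Cbr3, a carbonyl reductase, had intensities of 2023, 2018 and 2030.4 in subclone 28, 1919, 1755 and 1904 in subclone 3, and 1168, 1159 and 1221 in subclone 2. It had 838 and 790.4 in subclone 6, 813, 751 and 768 in subclone 18, 617, 640.2 and 629 in subclone 19, 642, 591 and 597 in subclone 23, and 369, 396 and 395 in subclone 24. Subclone 28 was 5.06-fold above subclone 24 (2.34 ± 0.047 SE, limma adjusted p = 5.03e-17), and both lay outside the arrays of all other subclones. Neighbours that did not differ beyond their spread were subclones 6 and 18 (limma adjusted p = 0.374) and 19 and 23 (0.545).

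Nqo1, the quinone reductase that uses NADH or NADPH, was highest in subclone 3, at 5066, 4299 and 4932, and in subclone 28, at 4177, 4324 and 4247, which overlapped. It was lowest in subclone 18, at 1989.9, 1680.4 and 2009, and in subclone 19, at 2004, 2007 and 1979, which overlapped too. Subclone 3 was 2.51-fold above subclone 18 (1.33 ± 0.067 SE, limma adjusted p = 1.07e-11). Subclones 2 (11.76 ± 0.032), 6 (11.74 ± 0.12) and 23 (11.66 ± 0.055) lay between and did not differ as neighbours, and subclone 24 was at 11.35 ± 0.042 (SD, n = 3, or n = 2 for subclone 6).

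Srxn1 encodes sulfiredoxin, which restores overoxidised peroxiredoxins. Its intensities were 2730.2, 2733 and 2755 in subclone 28, 2869.9, 2552 and 2602 in subclone 3, and 2301, 2311 and 2359 in subclone 2, all above the others. Subclones 24, 18 and 19 lay together at the bottom, with 1270.2, 1308 and 1316 in subclone 24, 1267, 1348 and 1321 in subclone 18, and 1227, 1418 and 1322 in subclone 19. Subclone 28 was 2.10-fold above subclone 24 (1.07 ± 0.051 SE, limma adjusted p = 7.42e-12). The Srxn1 window, chr2:152105274-152105523 on the plus strand of GRCm38.p6, is shown for its pair of Maf and AP-1 cores.
Srxn1: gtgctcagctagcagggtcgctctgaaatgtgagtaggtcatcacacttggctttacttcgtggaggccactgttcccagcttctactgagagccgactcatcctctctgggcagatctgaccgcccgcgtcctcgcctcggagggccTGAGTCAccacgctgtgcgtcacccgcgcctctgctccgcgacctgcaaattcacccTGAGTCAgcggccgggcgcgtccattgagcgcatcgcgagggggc
Capitals mark TGANTCA, the core shared by sites of Maf and AP-1 factors, searched on both strands. It had 2 matches here, ending 96 and 39 bases before the start, and 6.75% of all windows held at least 1. No other window of the 10 genes held that core.

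Txnrd1 and Hmox1 did not share that order. Txnrd1, the cytosolic thioredoxin reductase, was highest in subclones 28 (4474, 4808 and 4833) and 18 (4220, 4512 and 4429), which overlapped and lay above all other arrays. It was at 11.65 ± 0.068 in subclone 2, the lowest (SD, n = 3), and subclone 28 exceeded it by 1.47-fold (0.56 ± 0.051 SE, limma adjusted p = 8.75e-08). Subclone 18 was thus high for Txnrd1 and Gclc and lowest for Slc7a11 and Nqo1.

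Hmox1, the inducible haem oxygenase, had intensities of 605, 644 and 388 in subclone 19, 452 and 482 in subclone 6, 394, 439 and 323 in subclone 3, and 323, 329.8 and 388 in subclone 2. It had 293, 346 and 291 in subclone 18, 296, 234 and 142 in subclone 23, 226, 219.6 and 203 in subclone 28, and 122, 146 and 174 in subclone 24. Its arrays spread most within subclones 19 and 23, with an SD of 0.39 in subclone 19 and 0.50 in subclone 23 (n = 3 each), above that of each of the other 9 genes there. In subclones 6, 18 and 28 other genes among the 10 had larger SDs. Subclone 19 was 3.39-fold above subclone 24 (1.76 ± 0.21 SE, limma adjusted p = 1.49e-06). No neighbours in the order of subclones differed, the lowest adjusted p between neighbours being 0.0688 by limma. Subclone 28, at the top for Slc7a11, Cbr3 and Srxn1, was at -0.52 ± 0.16 for Hmox1 against the other 7 (limma adjusted p = 0.0119), a call that ended without its replicate 3 (adjusted p = 0.0664). In subclone 23 the Hmox1 difference was -0.53 ± 0.16 (limma adjusted p = 0.0107) and rested on its replicate 3, without which the adjusted p was 0.217.

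Nfe2l2 and Keap1, the regulators, ranged over 0.54 and 0.66 log2 units, close to Txnrd1 (0.56) and Gclc (0.74). Nfe2l2 had intensities of 5634.5, 5859 and 5935 in subclone 28 and of 5776, 5824 and 5682 in subclone 2, above every array of the other 6 subclones, which ran from 3842 to 4642. Those 6 did not differ as neighbours in the order, but subclone 23 was above subclones 24 (limma adjusted p = 0.00315) and 19 (0.0223), and subclones 18 and 3 were above subclone 24 (0.0266 and 0.0359). Subclone 28 was 1.46-fold above subclone 24, the lowest (0.54 ± 0.051 SE, limma adjusted p = 7.04e-08). Subclone 3, which was high for Cbr3, Gclm, Nqo1 and Srxn1, was at 12.11 ± 0.011 for Nfe2l2 (SD, n = 3), with a difference of -0.08 ± 0.039 SE from the other 7 (limma adjusted p = 0.101). It was called lower under 4 alternatives (limma adjusted p of 0.0244 to 0.0472) and called higher with the mean of all probe sets (0.17, adjusted p = 0.00934), so its direction rests on the probe set.

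Keap1 was highest in subclone 19, at 1257, 1199 and 1356, above all other arrays. It was lowest in subclone 3, at 789, 786 and 820.4, below all other arrays. The difference was 1.58-fold (0.66 ± 0.05 SE, limma adjusted p = 3.35e-09). Subclones 23, 18, 24, 28, 2 and 6 lay between, with means of 9.83 to 10.10. They did not differ as neighbours, nor did subclones 6 and 3 (limma adjusted p = 0.0571), but subclone 23 was above subclones 28 (0.00472), 2 (0.000211) and 6 (0.000608), and subclones 18 and 24 were above 2 and 6 (0.00702 to 0.0377).

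Calls were then counted by subclone against the other 7. In subclone 28, 7 of the 10 genes were higher and 2 lower (Gclc and Hmox1), against 19.2% and 18.2% of all genes. In subclone 3, 6 were higher and 1 (Keap1) lower, against 19.4% and 18.6%. In subclone 24, 1 (Gclc) was higher and 8 lower, against 15.2% and 17.1%, with Cbr3 at -1.35 ± 0.036 SE and Hmox1 at -1.12 ± 0.16 showing the largest differences. The median difference of the 10 genes was 0.46 in subclone 28 (0.00 over all genes), 0.42 in subclone 3 (0.01) and -0.27 in subclone 24 (-0.01).

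Subclone 23 had 1 gene higher (Keap1) and 6 lower, against 20.2% and 17.4% of all genes, with a median difference of -0.33. Subclone 19 had 2 higher (Hmox1 and Keap1) and 6 lower, against 24.2% and 17.7%, with a median of -0.30. Those medians lay further below 0 than that of subclone 24. Subclone 18 had 2 higher (Gclc and Txnrd1) and 4 lower, against 21.5% and 21.6%, and subclone 2 had 5 higher and 3 lower, against 15.4% and 20.5%. In subclone 6, 3 were higher (Slc7a11, Hmox1 and Nqo1) and 4 lower, against 13.8% and 10.1%. Of these 7 calls in subclone 6, only that of Slc7a11 held when either of its 2 arrays was left out. The 8 contrasts share arrays. Over all 80 combinations, 61 (76.2%) were called, against 36.2% over all genes and 61.4% over the 6716.

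**Figure D2:**
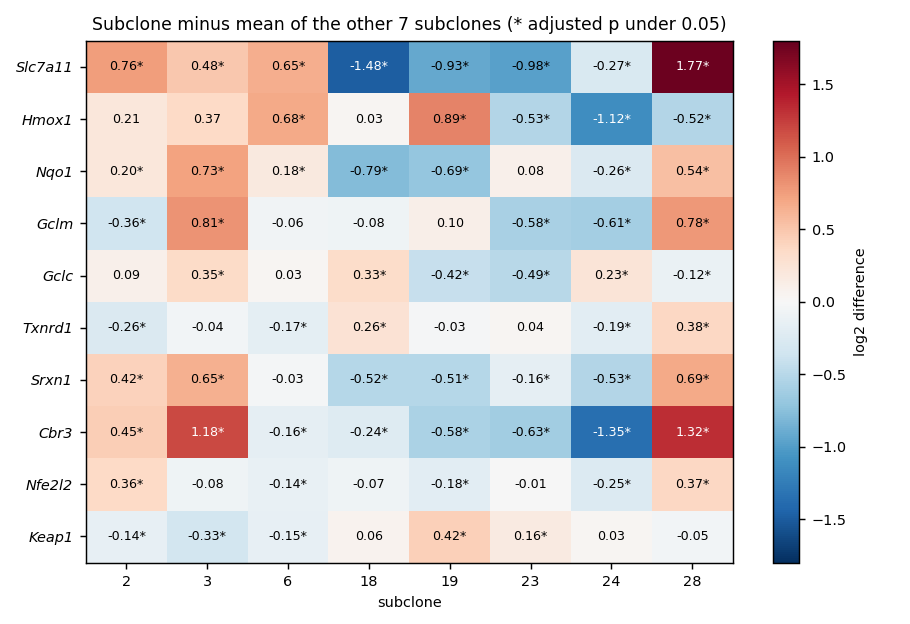
Log2 difference of each subclone (columns) from the mean of the other 7 subclones, for each of the 10 genes (rows), by colour and number. Asterisks mark adjusted p under 0.05. Slc7a11 spans 1.77 in subclone 28 to -1.48 in subclone 18, and subclone 24 is called lower for 8 genes and higher for Gclc.

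The likeness of the genes to each other was described by Pearson's r over the 8 subclone means, which come from the same arrays and are given without a test. Srxn1 was most like Cbr3 (r = 0.92), Nqo1 (0.91) and Slc7a11 (0.84), and Gclm was most like Cbr3 (0.84). Slc7a11 and Nqo1 had r = 0.81. Hmox1 had r between -0.20 and 0.33 with the other 9 genes, and Gclc had r between -0.11 and 0.21 with all but Keap1 (-0.69). Gclm and Gclc had r = 0.18. Nfe2l2 had r = 0.72 with Srxn1, 0.67 with Cbr3 and 0.63 with Slc7a11. Keap1 ran opposite to Nqo1 (-0.76), Srxn1 (-0.71), Slc7a11 (-0.63) and Cbr3 (-0.61). With 8 points, a single subclone such as 28 can carry much of an r.

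**Figure D3:**
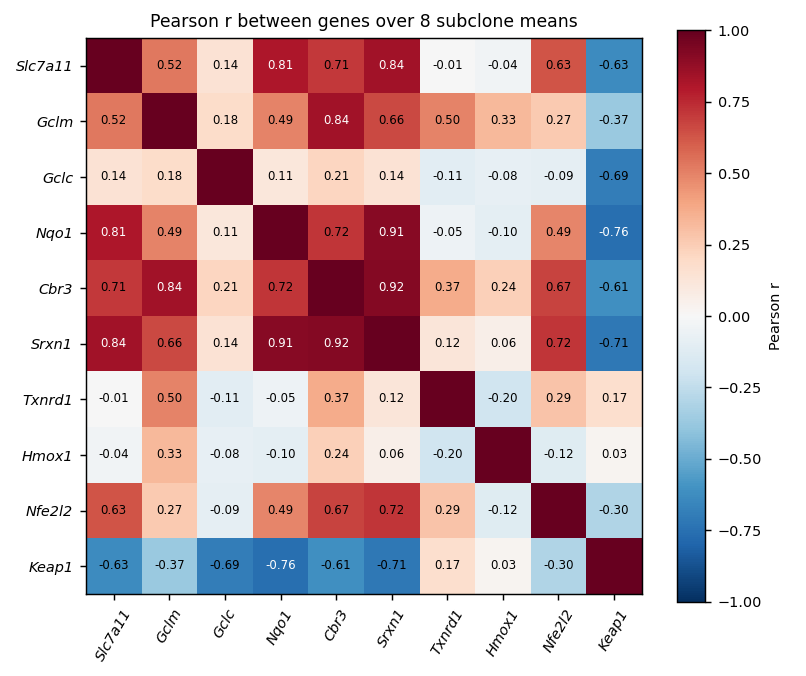
Pearson's r between each pair of the 10 genes over the 8 subclone means, by colour and number. Slc7a11, Nqo1, Cbr3 and Srxn1 form a block with r of 0.71 to 0.92, Keap1 is negative with each of these, and Hmox1 lies near 0 with most genes.

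Other probe sets of the same genes give a further measure that did not choose the values above. There were 10 such probe sets for 7 genes, and 9 passed the F-test in a fit over all 45037 probe sets other than controls. The share of the 45037 that passed was not counted. In the main fit, 61.8% of all genes and 97.3% of the 6716 passed, so passing does not set these probe sets apart. The second probe set of Slc7a11 was highest in subclone 28 (7.94) and had r = 0.94 with the first over the 8 subclone means. Its lowest subclone was 19 (5.60) instead of 18 (5.71). The second probe set of Gclc had r = 0.99 with the first, that of Gclm had 0.94, and the 3 others of Srxn1 had 0.99 each. The Gclc one was highest in subclone 18 (10.50), with subclone 3 at 10.41. The Srxn1 probe sets with ranges of 1.51 and 1.29 were highest in subclone 3, in place of 28. They were lowest in subclone 19, with subclone 24 level at 7.52 in the latter. The Gclm probe set was lowest in subclone 2 and highest in subclone 28, in place of 24 and 3. Of the other probe sets of Txnrd1, both dim, 1 did not pass (limma adjusted p = 0.164) and the other did (adjusted p = 0.0176), with r of 0.84 and 0.74. Those of Nfe2l2 (r = 0.62) and Keap1 (r = 0.67) were the least alike. The other Keap1 probe set was also highest in subclone 19 (7.73), but lowest in subclone 28 (7.14), with subclone 3 at 7.37. The dim Nfe2l2 probe set, with intensities from 26.64 to 72.28, was at 6.25 in subclone 3, second to subclone 28 (6.37), and so does not place subclone 3 as the bright one does.

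**Figure D4:**
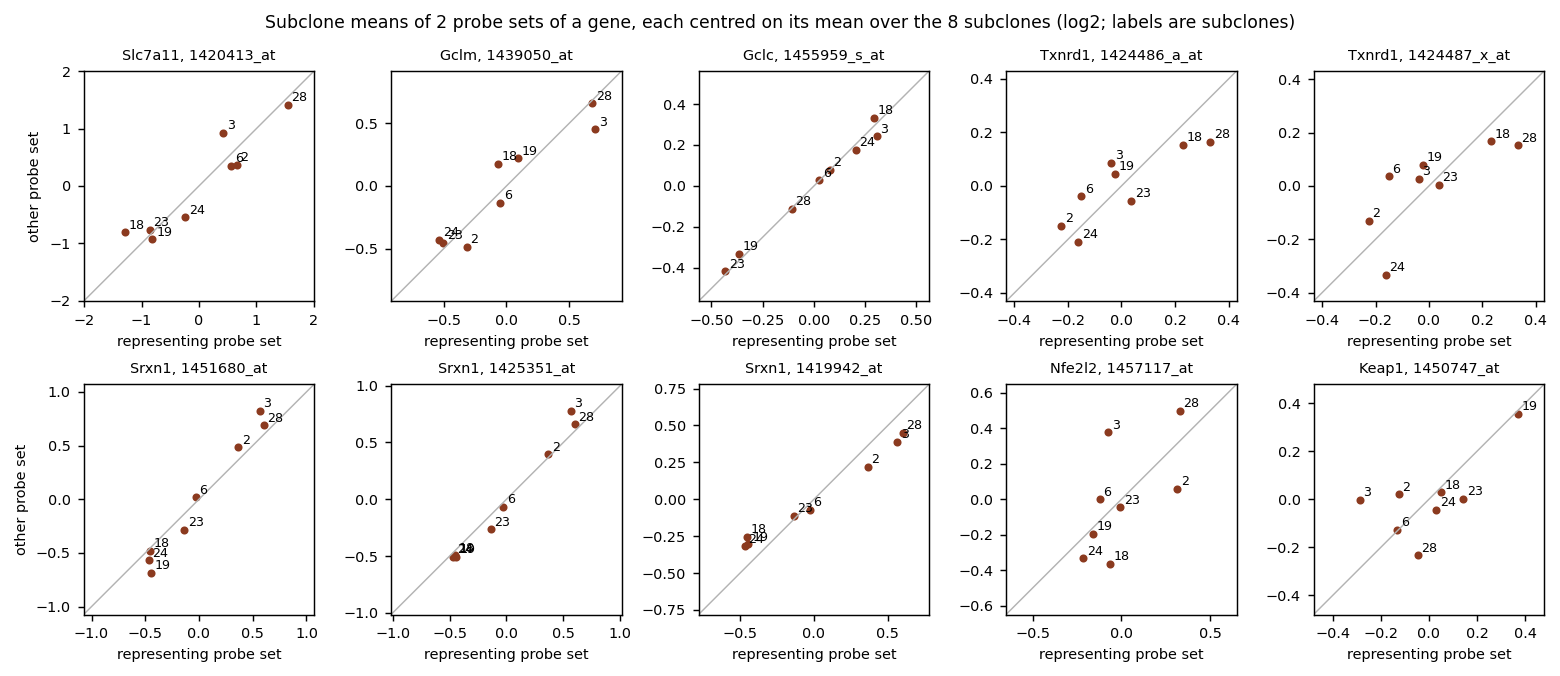
Subclone means of the representing probe set (horizontal axis) against another probe set of the same gene (vertical axis), in log2 units, each centred on its own mean over the 8 subclones. Numbers are subclones and the line marks equal differences. Pearson's r is 0.94 for Slc7a11 and 0.99 for Gclc and each Srxn1 probe set, against 0.62 for Nfe2l2 and 0.67 for Keap1. Points leave the line where differences are unequal, as for a Srxn1 probe set with a range of 1.51 against 1.07.

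Further genes of the pathway were counted by role, with 94 of 101 listed genes measured. Of the 94, 83 (88.3%) passed the F-test, against 61.8% of all genes. Of the 69 at or above the lowest mean level of the 10 genes, 68 passed, against 97.3% of the 6716 genes at such levels. A range of at least 1 log2 unit was seen in 25 of the 94 (26.6%), against 12.8% of all genes. Of the 69, 19 had such a range, against 15.5% of the 6716. The median range of the 94 was 0.65, against 0.49 over all genes and 0.60 over the 6716. In subclone 3, 45 of the 94 were higher and 10 lower, against 19.4% and 18.6% of all genes, with a median difference of 0.12. In subclone 28, 34 were higher and 27 lower, against 19.2% and 18.2% (median 0.04). In subclone 24, 20 were higher and 37 lower, against 15.2% and 17.1% (median -0.06), and in subclone 18, 25 were higher and 42 lower, against 21.5% and 21.6% (median -0.09).

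Among genes of cystine supply and the ATF4 response, 17 of 18 passed the F-test. The counts of this and the following lists stand against 61.8% of all genes. At or above the lowest mean level of the 10 genes, 13 of 13 passed here, against 97.3% of the 6716. At such levels, 7 of 7 glutathione and 5 of 5 ferroptosis genes passed. Only the list of quinone and carbonyl metabolism and export, with 9 of 10, held a gene at such levels that did not pass. In subclone 3, 12 of the 18 were higher and 3 lower, against 19.4% and 18.6% of all genes, and in subclone 28, 6 were higher and 7 lower, against 19.2% and 18.2%. Trib3, an ATF4 target, was at 8.48 ± 0.20 in subclone 6, the highest (SD, n = 2), and 6.57 ± 0.078 in subclone 18, the lowest (SD, n = 3). Cth, which makes cysteine from cystathionine, was at 7.90 ± 0.18 in subclone 3 and 6.03 ± 0.093 in subclone 24, and Atf3, a stress factor, at 8.10 ± 0.10 in subclone 19 and 6.79 ± 0.061 in subclone 24 (SD, n = 3 each). Slc3a2 and Atf4 were singled out after their values were seen. Slc3a2, the heavy chain that carries xCT to the membrane, had the same extremes as Slc7a11, with 10.92 ± 0.011 in subclone 28 and 10.08 ± 0.023 in subclone 18 (SD, n = 3 each), a range of 0.83. Atf4 ranged over 0.31 and was lower in subclone 28 than in the other 7 (-0.17 ± 0.054 SE, limma adjusted p = 0.0166).

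Of 12 measured genes that make, recycle or use glutathione, 9 passed the F-test. Mgst1, a microsomal glutathione transferase, was at 11.79 ± 0.067 in subclone 18, the highest (SD, n = 3), and 10.14 ± 0.029 in subclone 6, the lowest (SD, n = 2). Its relative Mgst3 was at 11.56 ± 0.025 in subclone 3 and 10.08 ± 0.025 in subclone 2, and glutaredoxin Glrx at 11.80 ± 0.016 in subclone 28 and 10.84 ± 0.096 in subclone 24 (SD, n = 3 each). Of 11 thioredoxin and peroxiredoxin genes, 10 passed. Txnip, which binds and inhibits thioredoxin, was highest in subclone 28 (12.97) and lowest in subclone 18 (11.73), Prdx2 was highest in subclone 23 (12.45) and lowest in subclone 28 (11.74), and Sesn1 highest in subclone 18 (10.07) and lowest in subclone 24 (9.44).

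All 9 measured genes of haem and iron passed. Blvrb, a biliverdin reductase gene, was at 12.22 ± 0.076 in subclone 3 and 10.29 ± 0.041 in subclone 19 (SD, n = 3 each). The iron exporter gene Slc40a1 was highest in subclone 6 (8.07) and lowest in subclone 28 (6.61), and Slc48a1, a haem transporter, highest in subclone 3 (11.44) and lowest in subclone 23 (10.52). All 7 measured genes listed under NADPH supply passed too, with the widest ranges in Phgdh (1.15), Mthfd2 (1.08) and Idh1 (1.07). Not every gene listed there makes NADPH directly. The measured pentose phosphate enzymes on that list, grouped after their values were seen, were Taldo1, with a range of 0.92 and its highest means in subclones 3 (11.58) and 28 (11.55), Tkt (0.29) and Pgd (0.26).

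Of 13 genes of quinone and carbonyl metabolism and export, 11 passed. Ephx1, the microsomal epoxide hydrolase, was at 11.23 ± 0.021 in subclone 19 and 9.29 ± 0.052 in subclone 24, and Cbr2 at 7.86 ± 0.18 in subclone 24 and 6.24 ± 0.13 in subclone 19 (SD, n = 3 each). Cbr2 thus peaked in the subclone where its relative Cbr3 was lowest. Abcc1, an exporter of glutathione conjugates, was at 12.37 ± 0.01 in subclone 28 and 11.06 ± 0.024 in subclone 24 (SD, n = 3 each), the extremes of Cbr3 as well.

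Among 15 regulators of NRF2, 14 passed the F-test. Maff, a small MAF protein of the kind that partners NRF2, ranged most, with 9.98 ± 0.0081 in subclone 28 and 7.51 ± 0.19 in subclone 18 (SD, n = 3 each). Bach1, which competes with NRF2 for its sites, was highest in subclone 28 (11.28) and lowest in subclone 24 (10.40), and Palb2 highest in subclone 18 (7.80) and lowest in subclone 2 (6.81). Of 9 genes of ferroptosis and lipid peroxidation, 6 passed. Gch1, which starts tetrahydrobiopterin synthesis, was at 11.11 ± 0.024 in subclone 3 and 6.72 ± 0.015 in subclone 18 (SD, n = 3 each), a range of 4.39. Ptgs2 was highest in subclone 28 (13.25) and lowest in subclone 19 (11.43), and Acsl4, which loads polyunsaturated fatty acids into lipids, highest in subclone 28 (10.64) and lowest in subclone 18 (9.42).

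**Figure D5:**
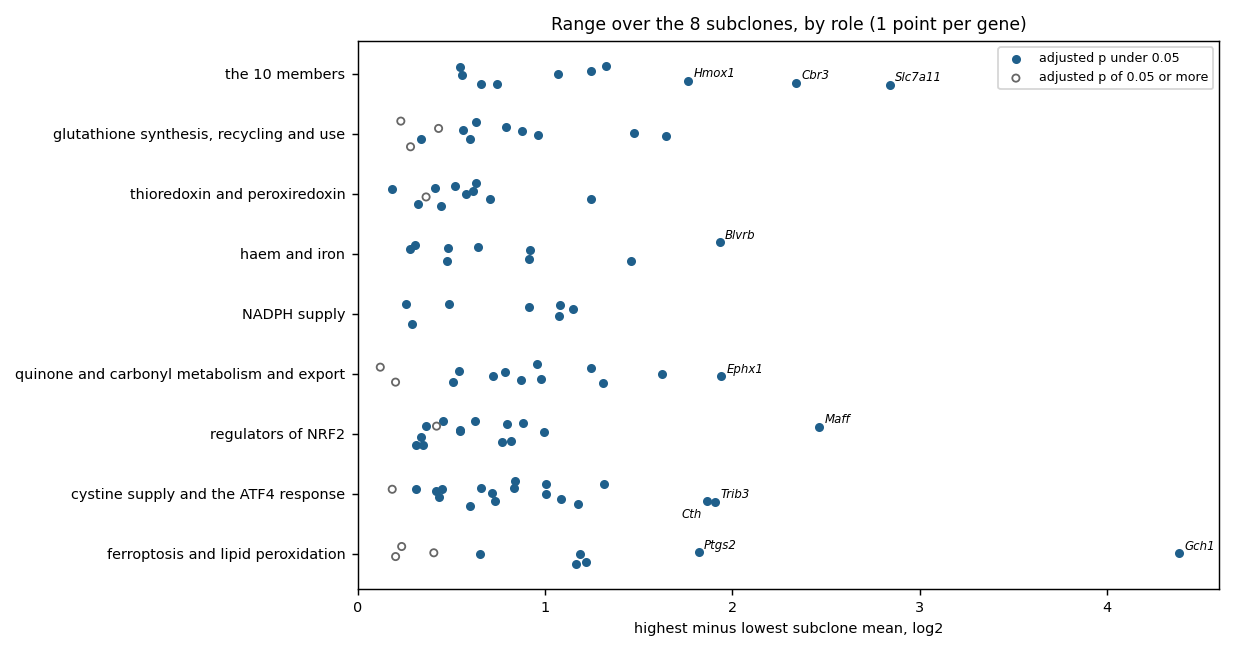
Highest minus lowest subclone mean, in log2 units, for each of the 10 genes and each measured gene of the 8 role lists (1 point per gene). Filled points passed the F-test and open points did not. Slc7a11 (2.84) and Cbr3 (2.34) lie beyond all listed genes except Gch1 (4.39) and Maff (2.46, beyond Cbr3 but not Slc7a11).

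For the 6 genes with a range of at least 1, the 3 genes of most similar pattern were looked for by Pearson's r over the 8 subclone means, among 1946 genes with a mean of at least 6 and a range of at least 1. Such values are a description, since the best of many candidates over 8 points will be high. For Slc7a11 they were Maff (r = 0.97), Rgs16 (0.97) and Tnfsf9 (0.97), all highest in subclone 28 and lowest in subclone 18. For Nqo1 they were Lbh (0.98), Fam13a (0.97) and Rras (0.96), for Srxn1 Procr (0.97), Clec4d (0.96) and Lst1 (0.96), and for Cbr3 Neil1 (0.94), Abcc1 (0.93) and Pla2g4a (0.92). For Gclm they were Lrp8 (0.95), Egr1 (0.92) and Sgtb (0.91). Those of Hmox1 were the least alike, Tmem88 at 0.90, Rgs11 at 0.87 and Lrrc51 at 0.85.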

How the data were processed

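Total RNA of 8 LLC subclones (23 samples, grouped by the subclone in each title) was measured on Affymetrix arrays after biotin labelling, per the labels' protocols. The authors deposited linear intensities, 1 value per probe set and array for 45101 probe sets. Their summary algorithm and scaling: not given in the sources used here. Control probe sets (64) were left out. The annotation gave 1 gene symbol to 34945 of the others, several to 932, and did not list 9160, which were not named. A RefSeq table of GRCm38.p6 gave current symbols, matched on the Entrez identifier (34741 probe sets). The probe set with the highest mean stood for a gene, which left 18193 genes, with no filter on low values.

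Values were log2(intensity + 16). The limma package (3.58.1, R 4.3.3) fitted 1 mean per subclone with 15 residual degrees of freedom, using lmFit and eBayes, and gave a moderated F-test, contrasts of each subclone against the mean of the other 7, and all 28 pairs. P-values were adjusted by Benjamini-Hochberg over all genes within each contrast, and the pair of highest and lowest subclone was picked from the data. The fit was tested on simulated data. The 10 genes and all lists were chosen with earlier results of these data known. Named pathway genes are the up to 3 of each list with the largest range among those past the F-test, and named similar genes the 3 with the highest r. Promoter sequences are from RefSeq (GRCm38.p6). Alternatives were pseudocounts of 1 and 64, a filter on low genes, quantile normalization, median centring, the mean of all probe sets, an intensity trend, a replicate block, adjustment over all contrasts together, and each array left out. Arrays of equal replicate number did not deviate together across subclones (mean r = -0.0043 over 77 pairs, from -0.37 to 0.27), so the numbers were not taken as pairs.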

Additional observations from a re-analysis of the deposited data

How the results depend on the processing

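Under 32 alternatives (23 arrays left out singly and 9 other settings), all 10 genes passed the F-test. The difference between the subclones that were highest and lowest in the main fit kept its direction and its side of the threshold for each of the 10 genes. The number of combinations called higher ran from 25 to 29 (27 as reported), those called lower from 32 to 35 (34), pair calls from 195 to 221 (208), the median range from 1.12 to 1.20, and listed pathway genes past the F-test from 81 to 84 (83). With the replicate number as a block, 27 combinations were called higher, 33 lower and 208 pair combinations, and only Nfe2l2 in subclone 6 lost its call (adjusted p = 0.0655 by limma). Of the 61 calls against the other 7 subclones, 50 were called under every alternative and 11 were lost under at least 1, with no sign turned among the 61. A further 7 combinations were called under at least 1 alternative only: Nfe2l2 in subclone 3 (5 alternatives, with the sign turned under the mean of all probe sets) and in subclone 18 (2), Gclc in subclone 2 (5, adjusted p from 0.0227), Hmox1 in subclone 3 (3, from 0.033), Gclm in subclone 19 (1, 0.0171), and Keap1 in subclones 18 (1, 0.0472) and 28 (1, 0.0104), all by limma. Lost calls not given above were Keap1 in subclone 23 with the mean of all probe sets (adjusted p = 0.191, limma) and Keap1 in subclone 2 with that mean and without its replicate 1 (0.374 and 0.051). Nqo1 in subclone 6 was lost under 8 alternatives (0.0503 to 0.461). Quantile normalization and median centring moved the median difference of all genes by at most 0.044. The difference of subclones 28 and 2 in Txnrd1 was 0.38 with the mean of all probe sets. Both dim probe sets of Txnrd1 were lowest in subclone 24 (6.86 and 6.47) instead of subclone 2 (6.92 and 6.67). The cause of these changes was not tested.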
